A study of Homo sapiens with 4 samples.

Results

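The genes described here are 49 interferon-stimulated genes, taken as a named list and matched by symbol to the 2 deposited expression tables, 1 for each of 2 human bladder cancer cell lines. All 49 were measured in SW780 and 45 in UMUC3, out of 17752 and 30148 genes in the tables and 32485 genes in either. MX2, EPSTI1, CXCL10 and CXCL11 were not analysed here in UMUC3. The rule for the list uses gene names alone, though the list was drawn up with earlier results of these data known.

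RNA sequencing was done on 4 groups with 1 library each: UMUC3 shNT, UMUC3 shSCD1, SW780 shNT and SW780 shSCD1. In the shSCD1 groups a lentivirus was used to knock down SCD1, the stearoyl-CoA desaturase encoded by SCD, and the shNT groups have the genotype WT. Both lines are labelled as human bladder cancer cells. UMUC3 was grown in MEM and SW780 in DMEM, so medium and line cannot be told apart, and no group is labelled as given interferon. The labels do not say how many cultures, clones or hairpins stand behind a library. The column headers call the libraries first and second. The second was read as shSCD1, since each table has that name and its ratios are second over first, and every direction within a line would turn if its columns stood in the other order.

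Interferons are secreted antiviral proteins. Type I interferons bind the receptor chains IFNAR1 and IFNAR2, whose kinases JAK1 and TYK2 set off the assembly of the factor ISGF3. This factor contains STAT2 and IRF9 and binds the interferon-stimulated response element (ISRE) in promoters, whereas interferon gamma acts mainly at the gamma-activated site (GAS). The induced proteins sense viral RNA, block entry, translation or assembly of viruses, and tune the signal itself. Many tumour lines express such genes without added interferon, and in the bladder interferon alpha has been used against superficial tumours.

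Levels are CPM, a gene's reads per 1000000 reads in its table, and the tables held 22818368 (UMUC3 shNT), 32540576 (UMUC3 shSCD1), 34087871 (SW780 shNT) and 25549737 (SW780 shSCD1). Ratios are log2((shSCD1 CPM + 1)/(shNT CPM + 1)), and the added 1 CPM pulls the ratios of scarce transcripts towards 0. A member is called higher or lower by the size rule where its log2 ratio is 1 or more, or −1 or less, and 1 of the 2 libraries holds at least 1 CPM; genes with that level are called kept. Folds are plain CPM ratios with exact 95% counting intervals. With 1 library a group there was no replicate check and no test within a line, and the intervals cover counting error only, not the spread between cultures. A count of 0 allows up to 3 reads, between 0.0880 and 0.131 CPM.

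The targeted gene was examined first. SCD stood at 264 CPM in UMUC3 shNT and 59.6 CPM in UMUC3 shSCD1, and at 592 CPM in SW780 shNT and 92.1 CPM in SW780 shSCD1. In both lines the shSCD1 library had the lower level, which is the only check of the column order. Of the urothelial and epithelial markers, SW780 shNT had KRT7 at 4880.4 CPM, CDH1 at 494 CPM, GATA3 at 280 CPM and UPK1B at 201 CPM, with UPK3A and KRT20 under 1 CPM. In UMUC3 shNT only KRT18 (372 CPM) and KRT8 (148 CPM) were abundant, KRT19 and UPK1B had 0 reads in both libraries, and 11 of the 14 markers were analysed. The summed level of the urothelial and epithelial markers was 536 CPM in UMUC3 shNT and 264 CPM in UMUC3 shSCD1, and 12439 and 10240.2 CPM in the SW780 libraries. Markers of blood cells summed to between 14.8 and 67.4 CPM over the 4 libraries, mostly CD68, and PTPRC had at most 3 reads in SW780. Fibroblast markers summed to 178 and 250 CPM in SW780, from COL3A1 (139 and 203 CPM), LUM (35.9 and 40.0 CPM) and COL1A1, with 0 reads of DCN and PDGFRB, and to 3.07 and 1.11 CPM in UMUC3. Endothelial markers summed to at most 5.64 CPM in any library. The part of these marker differences in the results below was not tested.

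Stretches of promoter are shown for some of the members past the size rule in either line that hold the ISRE core. This core is the short repeat through which ISGF3 acts. The members were picked, among those measured in both lines, by the size of the smaller of their 2 log2 ratios. Other members past the rule, such as MX1 and SAMD9, also hold the core. The core, GAAA followed by any 2 bases and GAAA again, was searched on both strands in the 250 bases upstream of each RefSeq start (GRCh38.p14). The sequences run 5′ to 3′ along the gene's own strand, capitals mark the matches, and a match to the opposite strand reads TTTC, any 2 bases, TTTC. A stretch that lies in exons of GENCODE 29 was limited to 30 bases. The GBP1 and LGALS3BP stretches lie wholly in such exons and the IFIH1 stretch in part, and the other 5 lie outside them.
IFIT1, chr10:89392477-89392545, plus strand: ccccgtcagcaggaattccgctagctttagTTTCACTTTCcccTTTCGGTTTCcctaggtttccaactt
IFIT3, chr10:89327811-89327893, plus strand: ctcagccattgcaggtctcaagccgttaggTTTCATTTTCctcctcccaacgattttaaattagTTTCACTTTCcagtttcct
IFI44, chr1:78649741-78649788, plus strand: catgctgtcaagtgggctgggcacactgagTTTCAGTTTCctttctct
IFI6, chr1:27672256-27672378, minus strand: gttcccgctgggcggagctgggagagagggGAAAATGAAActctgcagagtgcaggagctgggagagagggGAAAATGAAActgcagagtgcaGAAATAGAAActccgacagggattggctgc
DDX60, chr4:168318811-168318870, minus strand: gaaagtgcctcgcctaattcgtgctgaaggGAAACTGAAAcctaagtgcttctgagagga
GBP1, chr1:89065316-89065345, minus strand: aacgaagtacTTTCAGTTTCatattactct
LGALS3BP, chr17:78979962-78979991, minus strand: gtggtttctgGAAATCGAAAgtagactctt
IFIH1, chr2:162318821-162318850, minus strand: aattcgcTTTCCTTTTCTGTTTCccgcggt

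In the whole window IFIT1, IFIT3 and DDX60 each hold 2 cores, IFI6 and IFIH1 hold 3, and IFI44, GBP1 and LGALS3BP hold 1. In IFIH1 2 of the cores overlap within the stretch shown, and 1 core each of IFIH1 and DDX60 lies outside the stretches shown. Of the 41 members with a window in the RefSeq table, 26 (63.4%) held the ISRE core, against 3.71% of all 27305 genes with a window. The GAS core, TTC followed by any 3 bases and GAA, on either strand, was in 12 of the 41 (29.3%), against 8.09% of all genes. In 4 of these members a GAS match overlapped an ISRE match. OAS2, MX2, USP18, IFITM2, TRIM22, IRF7, IFIT2 and OASL had no window in that table. These are matches of letters and not mapped binding sites.

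In UMUC3 the members leaned to lower levels in the shSCD1 library. Of 45 measured, 33 reached 1 CPM in either library. By the size rule 11 of the 33 were lower, against a background of 2.18% of the 14063 genes kept, and 0 were higher, against 2.47%. In all 22 of the 33 were below 0 (background 45.7%) and 11 above 0 (54.3%), and their median log2 ratio was −0.53, beside 0.04 over all genes kept. The counting interval of the fold lay below 1 for 21 members (background 29.6%), above 1 for 6 (35.9%) and held 1 for 6. In RNA from whole cultures, fewer expressing cells and less RNA per cell cannot be told apart. Since weak members passed through whichever library was higher, the median was also taken over all 45, where it was −0.32. With 5 CPM added in place of 1, which weighs against weak genes, 5 of the 11 were still lower. The share of all genes was not taken with 5 CPM added, so this count has no background. The 12 members under 1 CPM were IFITM1, IFI27, IFI44L, MX1, OAS2, OASL, IRF7, BST2, CMPK2, RSAD2, XAF1 and TRIM22.

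In SW780 nearly all members were higher in the shSCD1 library. Of 49 measured, 48 reached 1 CPM, and IFITM2 did not, with 4 and 0 reads. By the size rule 12 of the 48 were higher, against a background of 1.48% of the 12880 genes kept, and 0 were lower, against 1.06%. In all 46 were above 0 (background 48.5%), the exceptions being IFIT2 (−0.11) and SAMD9 (−0.03). The counting interval lay above 1 for the same 46 (background 28%) and below 1 for the other 2 (29.8%). The median log2 ratio was 0.72, beside −0.01 over all genes kept. With 5 CPM added 7 of the 12 were still higher, again with no background taken. With a fold of 1.5 as the rule 29 members were higher (background 5.05%). The authors' deposited tables give a GFOLD value, a fold change shrunk towards 0 by counting error. It is above 0 for 46 of the 49 members in SW780 (background 20.6%) and for 4 of 45 in UMUC3 (12.7%). It is below 0 for 23 members in UMUC3 (background 20%) and for 0 in SW780 (19.2%). These GFOLD backgrounds cover all genes in each table, also those under 1 CPM, which the other backgrounds here leave out.

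**Figure D1:**
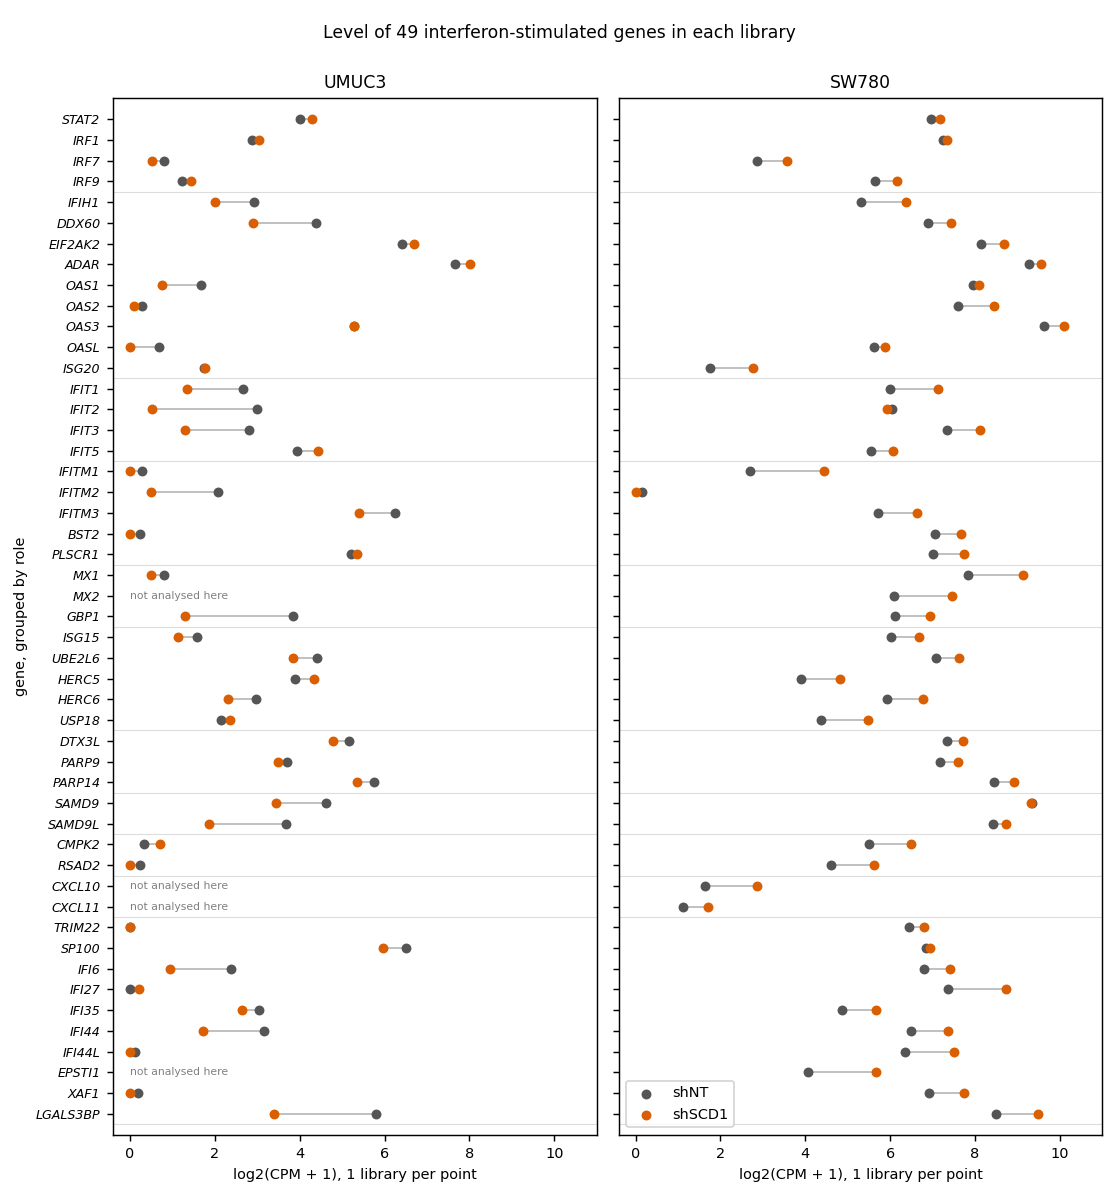
Level of each interferon-stimulated gene in the 4 libraries as log2(CPM + 1), grouped by role, with shNT in grey, shSCD1 in orange and UMUC3 and SW780 in separate panels. Each point is 1 library. In UMUC3 many orange points lie left of the grey ones, as for GBP1 and LGALS3BP, and in SW780 46 of 49 lie to the right.

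**Figure D2:**
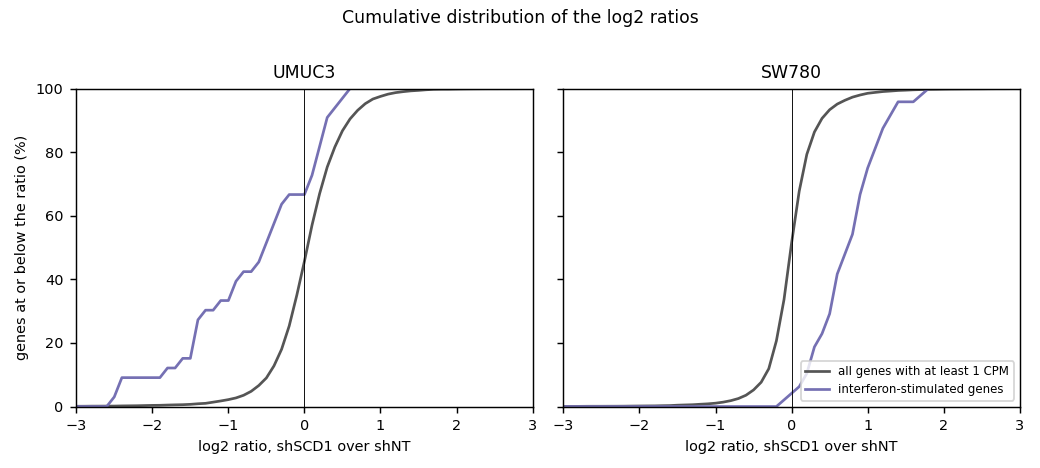
Percentage of genes at or below each log2 ratio (shSCD1 over shNT) for all genes with at least 1 CPM (14063 in UMUC3 and 12880 in SW780, grey) and for the interferon-stimulated genes among them (33 and 48, purple). The purple curve lies left of the grey curve in UMUC3, with medians of −0.53 and 0.04, and right of it in SW780, with medians of 0.72 and −0.01.

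Of the 4 signalling factors among the members, 3 were kept in UMUC3, all above 0, and only STAT2 had an interval above 1. STAT2, a subunit of ISGF3, was at 15.1 CPM in UMUC3 shNT and 18.6 in shSCD1, and at 124 and 144 CPM in SW780. It was 1.23-fold higher in UMUC3 (95% interval 1.08 to 1.41) and 1.16-fold higher in SW780 (1.11 to 1.21), so the direction was shared and the size small in both. IRF1, a transcription factor induced chiefly by interferon gamma, was at 6.31 and 7.22 CPM in UMUC3 and at 149 and 161 CPM in SW780. IRF9, the DNA-binding subunit of ISGF3, was at 1.36 and 1.69 CPM in UMUC3 and at 49.2 and 70.1 CPM in SW780. Both were above 0 in both lines, but in UMUC3 their counting intervals held 1. IRF9 shares 48.4% of its exonic bases with another annotated gene and IRF1 22.0%, so their counts are uncertain. IRF7, which amplifies interferon alpha production, had 17 and 14 reads in UMUC3 and was 1.73-fold higher in SW780 (1.44 to 2.08), from 6.22 to 10.8 CPM.

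Of the 9 RNA sensors and RNA-acting effectors, only DDX60 was lower by the size rule in UMUC3, and IFIH1 and ISG20 were higher in SW780. IFIH1 encodes MDA5, which recognises long double-stranded RNA. It was at 6.53 CPM in UMUC3 shNT and 3.01 in shSCD1, and at 38.9 and 81.3 CPM in SW780. The fold was 2.17 lower in UMUC3 (1.67 to 2.83) and 2.09 higher in SW780 (1.95 to 2.24), opposite directions with intervals that both exclude 1. DDX60, a helicase that has been linked to RNA sensing, was at 19.8 and 6.48 CPM in UMUC3, 3.05-fold lower (2.58 to 3.61), and at 118 and 173 CPM in SW780, 1.46-fold higher (1.40 to 1.52). ISG20, a 3′ to 5′ exonuclease, was level in UMUC3 at 2.37 and 2.40 CPM and 2.45-fold higher in SW780 (1.85 to 3.26), from 2.35 to 5.75 CPM.

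The OAS enzymes make oligoadenylates that switch on RNase L. OAS3, the most abundant of them, was at 38.1 CPM in both UMUC3 libraries and at 789 and 1088 CPM in SW780, 1.38-fold higher (1.36 to 1.40). OAS1 was at 2.19 and 0.676 CPM in UMUC3, 3.24-fold lower (1.93 to 5.62), and at 246 and 270 CPM in SW780, 1.10-fold higher (1.06 to 1.13). OAS2 had 5 and 2 reads in UMUC3 and stood at 194 and 346 CPM in SW780, 1.78-fold higher (1.72 to 1.84). OASL, a relative without that enzyme activity, had 14 and 0 reads in UMUC3, at least 6.65-fold lower when the 0 is taken as 3 reads and with an exact 95% limit of 4.73-fold, and was 1.20-fold higher in SW780 (1.12 to 1.29).

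EIF2AK2 and ADAR, which meet double-stranded RNA with opposite effects, were higher in the shSCD1 library of both lines. EIF2AK2 encodes PKR, a kinase that stops translation, and stood at 84.8 and 103 CPM in UMUC3 and 280 and 410 CPM in SW780. It was 1.21-fold higher in UMUC3 (1.15 to 1.28) and 1.46-fold higher in SW780 (1.42 to 1.51). ADAR, the adenosine deaminase that edits double-stranded RNA and keeps it from being sensed, stood at 201 and 259 CPM in UMUC3 and at 620 and 748 CPM in SW780. Its folds were 1.29 (1.24 to 1.33) and 1.21 (1.18 to 1.23), and ADAR was the member with the most reads in UMUC3.

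The IFIT proteins bind foreign RNA ends or block translation initiation, and their 4 genes lie together on chromosome 10. IFIT1 was at 5.30 CPM in UMUC3 shNT and 1.54 in shSCD1, and at 62.9 and 138 CPM in SW780. It was lower in UMUC3 by 3.45-fold (2.46 to 4.90) and higher in SW780 by 2.20-fold (2.08 to 2.32), and no other member passed the size rule in opposite directions. IFIT3 was at 5.96 and 1.48 CPM in UMUC3, 4.04-fold lower (2.89 to 5.74), and at 160 and 278 CPM in SW780, 1.73-fold higher (1.67 to 1.79). IFIT2 was at 7.01 and 0.430 CPM in UMUC3, 16.3-fold lower (9.43 to 30.5), the greatest plain fold among the members kept there. In SW780 it was the exception of its family, at 64.6 and 59.6 CPM, a log2 ratio of −0.11 where IFIT1 had 1.12 and IFIT3 had 0.79. IFIT5 went the other way in UMUC3, at 14.2 and 20.5 CPM, 1.45-fold higher (1.26 to 1.66), and at 45.8 and 66.1 CPM in SW780, 1.44-fold higher (1.35 to 1.55). IFIT2 shares 10.3% of its exonic bases with other annotated genes, and the other 3 share none.

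Membrane proteins included the IFITM genes, whose products restrict the fusion of viruses with cells. IFITM3 was at 74.5 CPM in UMUC3 shNT and 41.2 in shSCD1, and at 51.1 and 98.0 CPM in SW780. It was lower in UMUC3 by 1.81-fold (1.68 to 1.95) and higher in SW780 by 1.92-fold (1.80 to 2.04), so the order of the lines turned between the shNT and the shSCD1 libraries. IFITM1 had 5 and 0 reads in UMUC3 and stood at 5.46 and 20.5 CPM in SW780, 3.77-fold higher (3.18 to 4.48). IFITM2 was the opposite case, at 3.24 and 0.400 CPM in UMUC3, 8.12-fold lower (4.47 to 16.0), and at 4 and 0 reads in SW780. The IFITM genes are close copies of each other, so reads could have been split between them. IFITM1 and IFITM2 share 32.5% and 22.7% of their exonic bases with each other. IFITM3 shares 21.3% with a gene on the opposite strand, so its count is uncertain as well. BST2, or tetherin, which holds budding virions on the cell surface, had 4 and 0 reads in UMUC3 and 133 and 202 CPM in SW780, 1.52-fold higher (1.46 to 1.59). PLSCR1, a phospholipid scramblase, was at 36.2 and 39.7 CPM in UMUC3, 1.10-fold higher (1.01 to 1.20), and at 129 and 214 CPM in SW780, 1.66-fold higher (1.60 to 1.73).

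The GTPases had the highest median of the groups of 3 or more in SW780, 1.28. MX1, which traps viral nucleocapsids, was at 228 CPM in SW780 shNT and 557 in shSCD1, 2.44-fold higher (2.37 to 2.51), and had 17 and 13 reads in UMUC3. MX2, which acts against retroviruses at the nuclear pore, was at 67.4 and 175 CPM in SW780, 2.59-fold higher (2.47 to 2.73). GBP1, a guanylate-binding protein induced strongly by interferon gamma, had the lowest log2 ratio of all members in UMUC3, −2.53. It stood at 13.3 and 1.48 CPM there, 9.002-fold lower (6.62 to 12.5), and at 68.2 and 122 CPM in SW780, 1.78-fold higher (1.69 to 1.88).

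ISG15 is a ubiquitin-like protein that is joined to other proteins by an enzyme chain. ISG15 itself was at 1.97 and 1.20 CPM in UMUC3, 1.65-fold lower (1.05 to 2.59), and at 63.4 and 102 CPM in SW780, 1.61-fold higher (1.52 to 1.71). UBE2L6, its conjugating enzyme, was at 20.2 and 13.3 CPM in UMUC3, 1.52-fold lower (1.33 to 1.73), and at 135 and 195 CPM in SW780, 1.44-fold higher (1.38 to 1.501). The ligase HERC5 did not share this pattern, at 13.8 and 19.3 CPM in UMUC3, 1.40-fold higher (1.22 to 1.60), and at 14.0 and 27.0 CPM in SW780, 1.93-fold higher (1.71 to 2.17). HERC6, its relative, was at 6.84 and 3.96 CPM in UMUC3, 1.72-fold lower (1.36 to 2.19), and at 59.6 and 109 CPM in SW780, 1.83-fold higher (1.73 to 1.94). USP18, which removes ISG15 and restrains the type I receptor, was at 3.42 and 4.09 CPM in UMUC3, with an interval that held 1, and at 19.5 and 43.8 CPM in SW780. Its fold of 2.25 (2.04 to 2.48) made it the member of this group past the size rule.

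DTX3L, a ubiquitin ligase, its partner PARP9 and the related ADP-ribosyltransferase PARP14 had folds under 1.5 in either line. PARP14, with the highest CPM of the 3, was at 53.3 and 40.1 CPM in UMUC3, 1.33-fold lower (1.23 to 1.44), and at 350 and 479 CPM in SW780, 1.37-fold higher (1.34 to 1.40). DTX3L was 1.30-fold lower in UMUC3 (1.18 to 1.44), from 34.9 to 26.7 CPM, and 1.30-fold higher in SW780 (1.25 to 1.35), from 160 to 209 CPM. PARP9 was at 12.0 and 10.3 CPM in UMUC3, where its interval held 1, and at 144 and 194 CPM in SW780.

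SAMD9 and its neighbour SAMD9L on chromosome 7 encode related antiviral factors that restrain poxviruses and cell growth. SAMD9 was at 23.8 CPM in UMUC3 shNT and 9.83 in shSCD1, 2.42-fold lower (2.10 to 2.78), and at 649 and 635 CPM in SW780. SAMD9L was at 11.9 and 2.64 CPM in UMUC3, 4.49-fold lower (3.51 to 5.80), and at 342 and 421 CPM in SW780, 1.23-fold higher (1.20 to 1.26). Both were lower by the size rule in UMUC3, while in SW780 this pair had the lowest group median, 0.13.

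The nucleotide enzymes CMPK2 and RSAD2 lie head to head on chromosome 2. RSAD2, or viperin, makes a nucleotide that ends viral RNA chains, and CMPK2 supplies its substrate. RSAD2 was at 23.4 and 48.5 CPM in SW780, 2.08-fold higher (1.90 to 2.27), and CMPK2 at 44.4 and 88.9 CPM, 2.00-fold higher (1.87 to 2.14) with a log2 ratio of 0.98, just under the size rule. In UMUC3 they had 4 and 0 reads and 6 and 21 reads. The chemokines CXCL10 and CXCL11, which draw T cells, were scarce in SW780. CXCL10 was 2.98-fold higher there (2.25 to 4.00), from 72 to 161 reads, and CXCL11 1.93-fold (1.27 to 2.97), from 40 to 58 reads.

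Of the remaining 10 members, LGALS3BP, a secreted glycoprotein that binds galectins, had the greatest gap between the log2 ratios of the 2 lines. It was at 55.1 CPM in UMUC3 shNT and 9.50 in shSCD1, and at 357 and 714 CPM in SW780. It was lower in UMUC3 by 5.80-fold (5.12 to 6.59) and higher in SW780 by 2.00-fold (1.96 to 2.05), where its log2 ratio of 0.999 lay just under the size rule. IFI6, an inhibitor of apoptosis and of flavivirus replication, was at 4.25 and 0.922 CPM in UMUC3, 4.61-fold lower (3.03 to 7.20), and at 110 and 169 CPM in SW780, 1.54-fold higher (1.47 to 1.61). IFI44 was at 7.89 and 2.27 CPM in UMUC3, 3.47-fold lower (2.63 to 4.61), and at 88.9 and 163 CPM in SW780, 1.83-fold higher (1.75 to 1.92). IFI35 and SP100 shared these directions with smaller folds. IFI35 was at 7.23 and 5.25 CPM in UMUC3, 1.38-fold lower (1.10 to 1.71), and at 28.1 and 50.0 CPM in SW780, 1.78-fold higher (1.63 to 1.94). SP100, a component of nuclear bodies, was at 89.2 and 61.6 CPM in UMUC3, 1.45-fold lower (1.36 to 1.54), and at 114 and 121 CPM in SW780, 1.06-fold higher (1.01 to 1.11).

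The other 5 were close to 0 or not analysed in UMUC3 and were higher in SW780 shSCD1. IFI27, a small protein widely used as a marker of interferon exposure, was at 165 and 424 CPM in SW780, 2.57-fold higher (2.49 to 2.66), and had 0 and 5 reads in UMUC3. IFI44L was at 80.4 and 179 CPM in SW780, 2.23-fold higher (2.12 to 2.34), and had 2 and 0 reads in UMUC3. EPSTI1 was at 15.6 and 49.7 CPM in SW780, 3.19-fold higher (2.88 to 3.53), the second highest fold there after IFITM1. XAF1, which counteracts an inhibitor of apoptosis, and TRIM22, a ubiquitin ligase, were 1.79-fold (1.72 to 1.86) and 1.28-fold higher (1.22 to 1.35). XAF1 had 3 and 0 reads and TRIM22 had 0 reads in UMUC3. XAF1 shares 38.3% of its exonic bases with a gene on the opposite strand and TRIM22 10.7% with another gene, and whether strand was used in counting is not given in the sources used here.

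Set side by side, the lines differed in direction for much of the list. Of the 32 members kept in both lines, 18 had an interval below 1 in UMUC3 and above 1 in SW780, against 9.58% of the 11152 genes kept in both, and 0 had the reverse, against 10.6%. The 18 were IFIT1, IFIT3, IFITM3, IFI6, IFI35, IFI44, IFIH1, ISG15, OAS1, SAMD9L, DTX3L, PARP14, DDX60, HERC6, UBE2L6, GBP1, SP100 and LGALS3BP. Another 6, namely IFIT5, STAT2, HERC5, EIF2AK2, ADAR and PLSCR1, were above 1 in both lines, and IFIT2 and SAMD9 were below 1 in both. The last 6 (ISG20, OAS3, IRF1, IRF9, PARP9 and USP18) were above 1 in SW780 with an interval that held 1 in UMUC3. The direction of OAS3 and ISG20 in UMUC3 turned with the scaling, from log2 ratios of 0.00 and 0.01 to −0.08 and −0.07 by the authors' deposited log2 fold change.

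The ratio was higher in SW780 than in UMUC3 for 29 of the 32, against 47.7% of all genes kept in both, the exceptions being STAT2, ADAR and IRF1. The median difference was 1.08 on the log2 scale, beside −0.02 over all genes. The difference was largest for LGALS3BP (3.42) and GBP1 (3.35). This order depends on the added 1 CPM, and by plain folds GBP1 and IFIT2 had wider gaps than LGALS3BP. With 1 library a group an interaction leaves no residual degrees of freedom, so this difference was not tested.

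**Figure D3:**
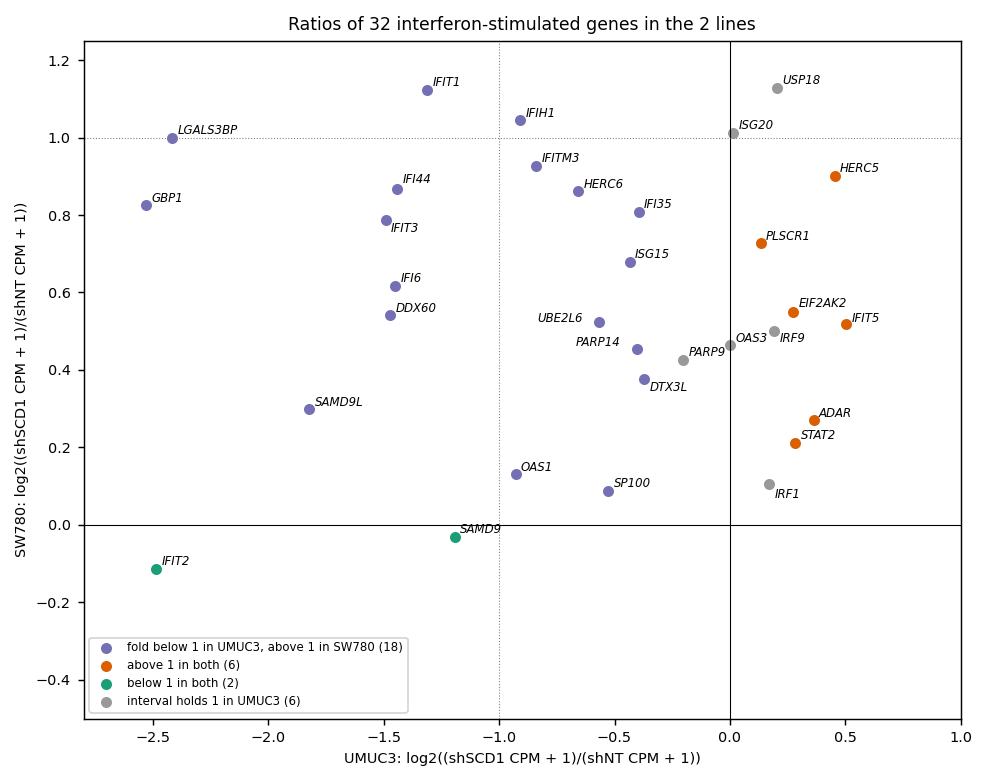
Log2 ratio of shSCD1 over shNT in UMUC3 (horizontal) and SW780 (vertical) for the 32 interferon-stimulated genes kept in both lines, 1 point per gene and 1 library per group in each line. The 18 purple points lie in the upper left, lower in UMUC3 and higher in SW780 beyond counting error, and 6 orange points lie above 0 in both; dotted lines mark the size rule.

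The only comparison of shSCD1 with shNT that leaves residual degrees of freedom takes the lines as 2 replicates. With limma on log2(CPM + 1), cell line as a block and Benjamini-Hochberg adjustment over 13079 genes, 1 gene was called at an adjusted p of 0.05 (0.00765%) and 546 had an unadjusted p of at most 0.05. The called gene was BEST1 (log2 ratio −4.94, adjusted p = 0.0118), a chloride channel outside the list, named after its value was seen. Of the 45 members tested 0 were called by limma, by edgeR's quasi-likelihood test (0% of genes called) or by DESeq2 (0.206%), and 6, 5 and 4 had an unadjusted p of at most 0.05. SCD itself had a limma log2 ratio of −2.40 and an adjusted p of 0.0641, against adjusted p-values of 0.667 by edgeR and 8.42e-24 by DESeq2. IFIT5, which was higher in both lines, had a limma log2 ratio of 0.51 (SE 0.17) and an adjusted p of 0.959. IFIT1, which differed in direction between the lines, had a limma log2 ratio of −0.10 (SE 0.53).

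The lines also differed in how much of these transcripts they held before any knockdown. As a caution, the tables hold different sets of genes, so the totals behind CPM cover different genes in each line. On log2(CPM + 1), 42 of the 45 members measured in both lines were higher in SW780 shNT than in UMUC3 shNT. By the size rule 40 were higher, against 27.5% of 12817 genes, and 1 was lower, against 14.8%. The median difference was 3.03, beside 0.26 over all genes, and between the shSCD1 libraries it was 4.72. TRIM22 and IFI27 had 0 reads in UMUC3 shNT and were at least 649-fold and 1252-fold higher in SW780 shNT when the 0 is taken as 3 reads. OAS2, at 194 CPM in SW780 shNT and 5 reads in UMUC3 shNT, was 886-fold higher (379 to 2729.7). The member lower in SW780 by the size rule was IFITM2 (−1.93), and IFITM3 (−0.54), ISG20 (−0.01), HERC5 (0.02) and SP100 (0.35) lay near 0.

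All members together took 0.0887% of the reads in UMUC3 shNT (95% exact interval 0.0875 to 0.0899) and 0.0760% in UMUC3 shSCD1 (0.0750 to 0.0769). In SW780 they took 0.685% (0.682 to 0.688) and 1.02% (1.02 to 1.03). The share was thus 1.17-fold lower (1.15 to 1.19) in UMUC3 shSCD1 and 1.495-fold higher (1.487 to 1.504) in SW780 shSCD1. ADAR and EIF2AK2 weigh heavily on the UMUC3 share, and without them the other 43 members measured in both lines were 1.51-fold lower in UMUC3 (1.47 to 1.55) and 1.51-fold higher in SW780 (1.501 to 1.519). Leaving out those 2 genes was chosen after their values were seen.

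Per kilobase of exon the leading members were not the same in the 2 lines. The length was that of all annotated exons of a gene joined together. It can exceed the length of the transcripts expressed, so the order of genes within a library also depends on the annotation. IFITM3 led in both UMUC3 libraries, at 55.3 CPM per kilobase in shNT and 30.5 in shSCD1. ADAR came next, at 20.8 and 26.8. LGALS3BP followed in UMUC3 shNT at 15.4 and was at 2.65 in shSCD1. In SW780 shNT the order was IFI6 (127), BST2 (119), LGALS3BP (99.6), OAS3 (95.6) and SAMD9 (94.6). In SW780 shSCD1 LGALS3BP (199) and IFI6 (195) led, followed by BST2 (181) and OAS3 (132).

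**Figure D4:**
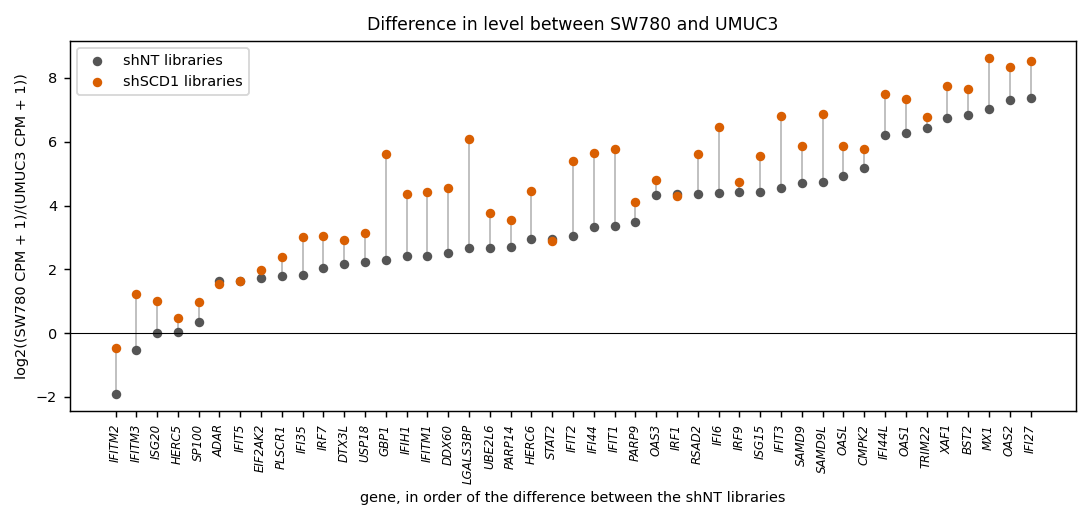
Log2((SW780 CPM + 1)/(UMUC3 CPM + 1)) of the 45 interferon-stimulated genes measured in both lines, between the shNT libraries (grey) and between the shSCD1 libraries (orange), ordered by the grey points, with 1 library per group in each line. Nearly all points lie above 0, with medians of 3.03 and 4.72, and IFITM2 is the lowest at −1.93 between the shNT libraries.

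Members with and without an ISRE core in the 250 bases upstream were set beside each other. In UMUC3 the 18 kept members with the core had a median log2 ratio of −0.87 and the 12 without it −0.38. By the size rule 8 and 1 of them were lower, against 2.18% of all genes kept. In SW780 the 26 with the core had a median of 0.88 and the 15 without it 0.50. Here 10 and 0 of them were higher by the size rule, against 1.48% of all genes kept. The ranges overlapped in both lines, from −2.53 to 0.50 against −1.82 to 0.36 in UMUC3 and from −0.03 to 1.74 against 0.09 to 0.98 in SW780. IFIT5 and HERC5 held 2 and 3 cores and had folds above 1 in UMUC3, and SAMD9L held none and was lower there. Members without a core in this window may hold one elsewhere, and the difference was not tested. Left out were members with no window, among them IFIT2 and IFITM2, lower in UMUC3, and MX2 and USP18, higher in SW780.

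**Figure D5:**
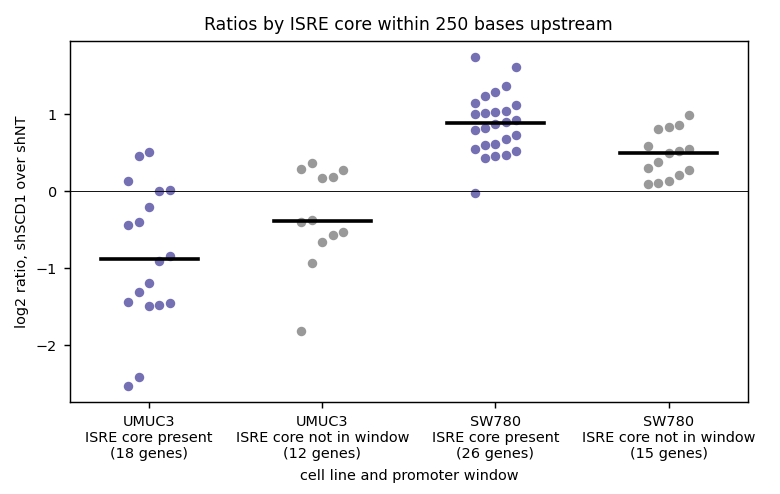
Log2 ratio of shSCD1 over shNT for interferon-stimulated genes with and without the ISRE core in the 250 bases upstream of the start, in UMUC3 (18 and 12 genes) and SW780 (26 and 15 genes). Each point is 1 gene from 1 library per group, and bars are medians (−0.87, −0.38, 0.88 and 0.50).

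A list of 40 genes upstream of the interferon-stimulated genes (ligands, receptors, kinases, nucleic acid sensors and regulators) was set beside the members. In UMUC3, 25 of 29 measured reached 1 CPM, 19 of the 25 were below 0 (background 45.7%), 3 were lower (2.18%) and 0 higher (2.47%) by the size rule, and −0.19 was the median. In SW780, 30 of 37 measured reached 1 CPM, 17 of the 30 were above 0 (background 48.5%), 1 was higher (1.48%) and 0 lower (1.06%), with a median of 0.05. The lower genes in UMUC3 were IFNGR1, the ligand-binding chain of the interferon gamma receptor, and the sensors STING1 and TLR3. IFNGR1 was at 84.4 and 34.2 CPM in UMUC3, 2.47-fold lower (2.29 to 2.66), and at 78.5 and 81.7 CPM in SW780. STING1, the adaptor for cytosolic DNA, was at 3.77 and 0.922 CPM in UMUC3 and TLR3, the endosomal sensor of double-stranded RNA, at 1.97 and 0.430 CPM. The higher gene in SW780 was ZBP1, a sensor of Z-form nucleic acids that triggers necroptosis, with 24 and 101 reads, 5.61-fold higher (3.57 to 9.17).

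The receptor chains and kinases of the type I pathway were examined whatever their values. JAK1 was at 311 and 280 CPM in UMUC3 and at 276 and 259 CPM in SW780. TYK2 was at 25.4 and 22.5 CPM in UMUC3 and at 64.1 and 66.3 CPM in SW780. IFNAR1 was at 78.7 and 77.3 CPM in UMUC3 and at 90.3 and 87.2 CPM in SW780, with intervals that held 1 in both lines. IFNAR2 was at 31.7 and 26.1 CPM in UMUC3 and at 37.2 and 60.0 CPM in SW780, but shares 83.2% of its exonic bases with another annotated gene and is uncertain. IRF3, which starts interferon transcription, was at 15.9 and 12.9 CPM in UMUC3 and at 123 and 117 CPM in SW780. The receptor and kinase genes thus lay within 1.13-fold of level in both lines for JAK1, TYK2 and IFNAR1.

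Interferon transcripts themselves were at or near 0. In SW780 IFNB1, IFNA1, IFNE, IFNK and IFNL3 had 0 reads in both libraries and IFNL1 had 2 and 6 reads. In UMUC3 IFNE had 4 and 6 reads and IFNK 0 in both, and the other ligands were not analysed here. IFNA2, IFNG and IFNL2 were not analysed here in SW780 either. At these depths 0 reads allow up to 0.0880 to 0.131 CPM.

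A further list of 55 interferon-stimulated genes outside the 49 was described in the same way. In UMUC3, 44 of 52 measured reached 1 CPM, 26 of the 44 were below 0 (background 45.7%), with a median of −0.11. The counting interval lay below 1 for 20 (29.6%) and above 1 for 13 (35.9%). By the size rule 8 were lower (2.18%) and 0 higher (2.47%). The 8 included CASP1, GBP2, UBA7, GBP3, SP110, TRANK1 and APOL1. CASP1, the inflammasome caspase, had 92 and 5 reads in UMUC3, 26.2-fold lower (10.8 to 82.7), and was at 28.0 and 25.9 CPM in SW780. UBA7, the enzyme that activates ISG15, had 42 and 5 reads in UMUC3, 12.0-fold lower (4.75 to 38.8), and was at 44.8 and 44.4 CPM in SW780. In SW780, 52 of 55 reached 1 CPM, and 39 of the 52 were above 0 (background 48.5%), with a median of 0.21. The size rule took 2 as higher (1.48%) and 1 as lower (1.06%). LY6E, a membrane protein that restricts coronaviruses, was 3.35-fold higher in SW780 (3.12 to 3.59), and GBP5 3.02-fold higher (2.14 to 4.32). C1S, a complement protease, was 3.27-fold lower in SW780 (2.58 to 4.20).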

How the data were processed

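For each line the authors deposited a table of GFOLD output with 2 library columns headed RPKM, per the file headers. Per the submitters' processing notes the build was hg38; the sources used here do not name the aligner, counter, annotation or strand setting. Although headed RPKM, the deposited signal is a read count scaled to 1 total per table, with no gene length in it: 100% of low values (up to 20 reads) and at least 99.9% of all were within 0.1 reads of whole multiples of 1 step, so reads were recovered and CPM used, where the design had named RPKM. The deposited log2 fold changes and GFOLD values (setting 0.01) served as alternatives. The deposited empirical FDR, a column of p-value type, holds 1 throughout and was left out.

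The members and lists were chosen with earlier results of these data known. Every member is accounted for by role. Values are given for members past the size rule, the member of highest CPM in each role, and those whose directions differ between lines. From the pathway lists, genes past the size rule and JAK1, TYK2, IFNAR1, IFNAR2 and IRF3 are named; some genes that the rule takes were left out of the text. Motifs were searched in RefSeq promoters (GRCh38.p14), and exon overlaps and lengths came from GENCODE 29. Intervals are exact Clopper-Pearson at 95%; as the reads carry no molecular identifiers, they cover counting error only. Tools were limma 3.58.1, edgeR 4.0.16 and DESeq2 1.42.0 in R 4.3.3, and scipy 1.17.1. Data were simulated from the shNT levels of each line, with a common library total in place of the real ones and counting error alone. Among 30148 genes in UMUC3 and 17752 in SW780, only well-covered genes were changed 3-fold, so weak genes were not tried. The size rule caught 200 of 200 of the changed genes in each line and 0 unchanged genes. Without spread between cultures, the simulation checks the calculation and gives no rate of false calls in the real data. Alternatives were other pseudocounts, filters, scalings, fold thresholds, the authors' own fold changes and other tests.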

Additional observations from a re-analysis of the deposited data

Results flagged for a closer look

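The groups' effects under the same contrast differed between the lines in 3 values. The median difference of the members' log2 ratios, SW780 minus UMUC3, was 1.08, over 32 members. There were 18 members whose counting interval lay below 1 in UMUC3 and above 1 in SW780. IFIT1, past the size rule in opposite directions, had log2 ratios of −1.31 and 1.12, a difference of 2.44. Each was listed because the single UMUC3 pair of libraries and the single SW780 pair moved in opposite ways; the difference was not tested.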

How the results depend on the processing

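The labels give no replicate numbers, so the only pairing is the cell line block in the fits over both lines, and no library could be left out of these, since 3 libraries leave no residual degrees of freedom. With a pseudocount of 5 CPM, 5 members were lower in UMUC3 and 7 higher in SW780, where 11 and 12 were with 1 CPM, and the SW780 median was 0.62 in place of 0.72. With a fold of at least 1.5 as the rule, 29 were higher in SW780 (background 5.05%). The authors' deposited log2 fold change gave an SW780 median of 0.80. Per kilobase of exon, the median level in SW780 shNT over UMUC3 shNT was 2.62 in place of 3.03. Over both lines edgeR called 0 genes (426 at an unadjusted p of at most 0.05) and DESeq2 called 27 (331), against 1 by limma. No direction of a median or count turned. Of 81 log2 ratios of named members, 16 moved with the pseudocount of 5 CPM and 11 with the authors' values. Moved means a shift larger than the distance from the middle of the counting interval to its ends, on the log2 scale. A moved value can still lie within the interval, which belongs to the plain fold. Leaving out members that share over 10% of their exonic bases, chosen after seeing the data, gave 9 lower in UMUC3 and 11 higher in SW780. For this setting and for the pseudocount of 5 CPM, no share of all genes was taken within a line. Of the 12 members under 1 CPM in UMUC3, only OASL and IFITM1 had counting intervals that exclude 1.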
